A study of Sus scrofa with 6 samples.

Results

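Malathion is an organophosphate insecticide, and this account follows 51 genes of the DNA damage response and DNA repair in pig oocytes matured with or without it. The genes were taken by symbol from a list drawn up with earlier results of these data known, by a rule that uses no measured value, and 46 of them were matched to an identifier among the 25880 genes of each library. XRCC4, OGG1, FEN1, PCNA and ERCC1 had no matching identifier and are named only. The samples were 3 control and 3 malathion-treated libraries of Sus scrofa oocytes at metaphase II (MII), the stage at which a mature egg waits for fertilisation. Cumulus-enclosed oocytes were aspirated from antral follicles of slaughterhouse ovaries, and the treated groups had 1 mM malathion, carried in DMSO, in the maturation medium. The labels do not say whether the controls had DMSO, how many oocytes made up a library, or whether replicates were separate cultures, so p-values measure only the spread between these libraries, which may be technical. A melatonin group, named in the study's title, is not analysed here.

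Cells answer DNA damage with sensor kinases, which stop the cell cycle, and with repair pathways that each handle a kind of lesion. Homologous recombination and end joining mend double-strand breaks, base excision repair removes small damaged bases, mismatch repair corrects copying errors, nucleotide excision repair cuts out bulky lesions, and the Fanconi anaemia pathway handles crosslinks between strands. A fully grown oocyte is nearly silent in transcription, so the transcripts counted here were mostly laid down during growth, and the early embryo relies on the same store for repair until its own genome is switched on.

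Expression is given as CPM, the counts of a gene after scaling each library to the same gene total. CPM is not corrected for transcript length, so levels are compared between libraries and not between genes. Where 3 values are listed for a group, they are those of its replicates 1, 2 and 3. Total gene counts ranged from 25816040 to 42312341. The oocyte markers, of which 12 of 14 were matched, summed to 56265, 21751 and 3489 CPM in the controls and to 63410, 44051 and 4343 CPM after malathion. BTG4 alone stood at 34834 CPM in control replicate 1. ZP2, MOS and NOBOX did not follow the sum and were highest in malathion replicate 3, at 2158, 1458 and 54.2 CPM. Each of the other matched oocyte markers was highest in a replicate 1 or 2 library. Cumulus and granulosa markers (10 of 13 matched) summed to 36.1 to 651 CPM in control and 66.1 to 722 CPM in malathion libraries, lowest in both replicate 3 libraries. Of these, VCAN reached 424 CPM and KITLG 244 CPM in malathion replicate 1. CYP11A1, STAR and INHBA were highest in malathion replicate 2, at 81.6, 25.0 and 17.4 CPM, with CYP11A1 at 22.1 CPM in control replicate 1. TNFAIP6, HAS2, PTX3 and FSHR were at most 2.56 CPM, and AMH was at 0 in each library. The markers of other ovarian, blood and vessel cells together came to at most 22.2 CPM, with CYP17A1 and CDH5 at 0 in each library. The part of these cells in the values below was not tested. Both replicate 3 libraries stood apart from the other 4, with 8344 and 8492 genes detected against 12211 to 14707, so results are given with and without them.

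In CPM, the repair genes lay at similar levels in 3 libraries and at very uneven levels in the other 3. The design does not set these 3 similar libraries apart. Over all genes tested they were also the most alike, with r of 0.943 to 0.972 between their log2 CPM. Between control replicate 1, malathion replicate 1 and malathion replicate 2, 38 of the 41 genes that passed the filter on low counts stayed within 2-fold, as did 70.1% of all 10678 genes tested. The exceptions were GADD45A, XRCC1 and MUTYH. In control replicate 2, 21 of the 41 lay below all of these 3 libraries and 13 above, against 24.6% and 58.0% of all genes tested. In control replicate 3, 36 of the 41 lay below each of the replicate 1 and 2 libraries, and 5 lay above, namely ATM, MRE11, XRCC2, XPA and ERCC4. In malathion replicate 3, 37 lay below and 2 lay above, XRCC2 and POLB. The shares below were 87.8% and 90.2% of the repair genes, close to the 87.7% and 88.9% of all genes tested. The shares above were 12.2% and 4.88% of the repair genes, beside 5.3% and 3.82% of all genes tested. CPM is a share of a library's gene total, so it measures neither the number of cells nor the RNA per cell. Why most genes were low in the replicate 3 libraries was not tested.

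**Figure D1:**
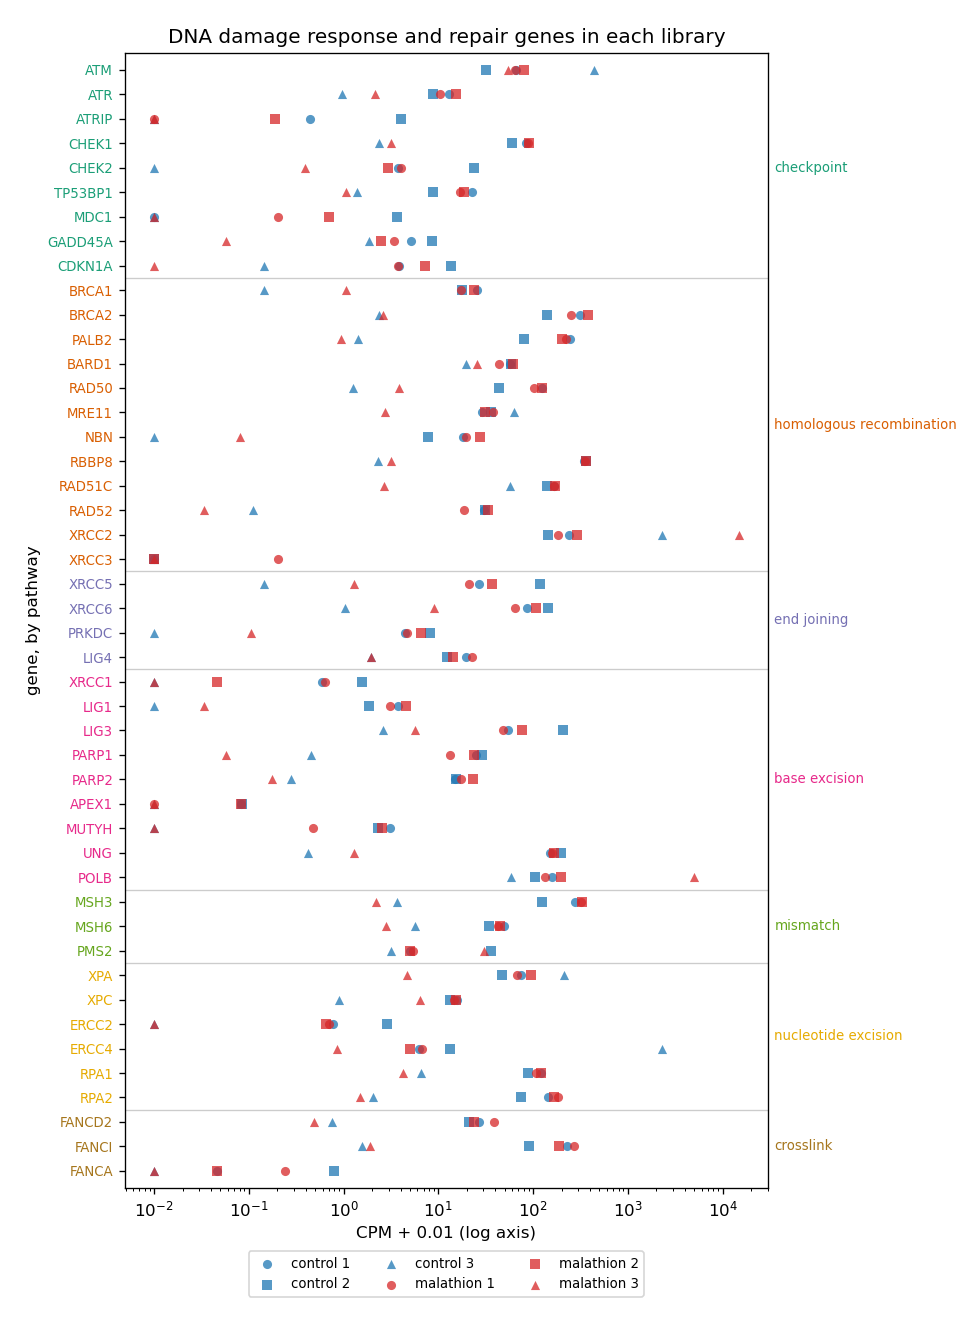
CPM (horizontal log axis, 0.01 added) of the 46 matched genes, grouped by pathway, with 1 point per library (blue, control; red, malathion; circles, squares and triangles for replicates 1, 2 and 3). Most triangles sit far to the left of the circles and squares of the same gene, and those of XRCC2, POLB, ERCC4, XPA, MRE11 and ATM sit to the right in at least 1 library.

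No repair gene passed the test of malathion against control. Of the 41 tested, 0 had an adjusted p under 0.05 in the quasi-likelihood test of edgeR (the smallest was 0.9998), and of all 10678 genes 0% passed. DESeq2 and limma-voom also called 0, but DESeq2 gave no p, adjusted or not, for 7 of the 41 (ATM, MRE11, XRCC2, POLB, PMS2, XPA and ERCC4). At an unadjusted p under 0.05 there were 3 of 41 (7.32%) in edgeR, ERCC4, MRE11 and XPA, beside 3.59% of all genes tested, and 0 in limma-voom. DESeq2, with no p for these 3 genes, gave 1 (GADD45A). With library totals as the only scaling the count was 2 (ERCC4 and POLB, beside 1.03% of all genes tested). With the replicate number as a block it was 0. It was also 0 without malathion replicate 3 or without both replicate 3 libraries, beside 2.82% and 2.17% of all genes tested. Without control replicate 3 it was 1, ATRIP, beside 3.51% of all genes tested. In none of the 41 did the CPM of the 3 malathion libraries all lie above or all below those of the 3 controls, while 0.749% of all tested genes were parted in this way. Log2 fold changes, malathion minus control, were above 0 for 25 of the 41 and below 0 for 16, with a median of 0.26, beside a median of −0.08 over all genes. The fold changes rest on TMM factors, which scale a library by its typical gene and ranged from 0.138 to 3.57 here. The factors of control and malathion replicate 3 were 0.141 and 0.138, against 2.26 or more in the other libraries. Levels in replicates 3 therefore stand higher on that scale than in CPM. With library totals in their place, the split was 20 to 21 and the median −0.047, beside −0.33 over all genes. Over the 41 genes, the 95% interval reached a median of 2.5 to either side of the estimate on the log2 scale, so changes of several fold were not detectable with 3 libraries per group.

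**Figure D2:**
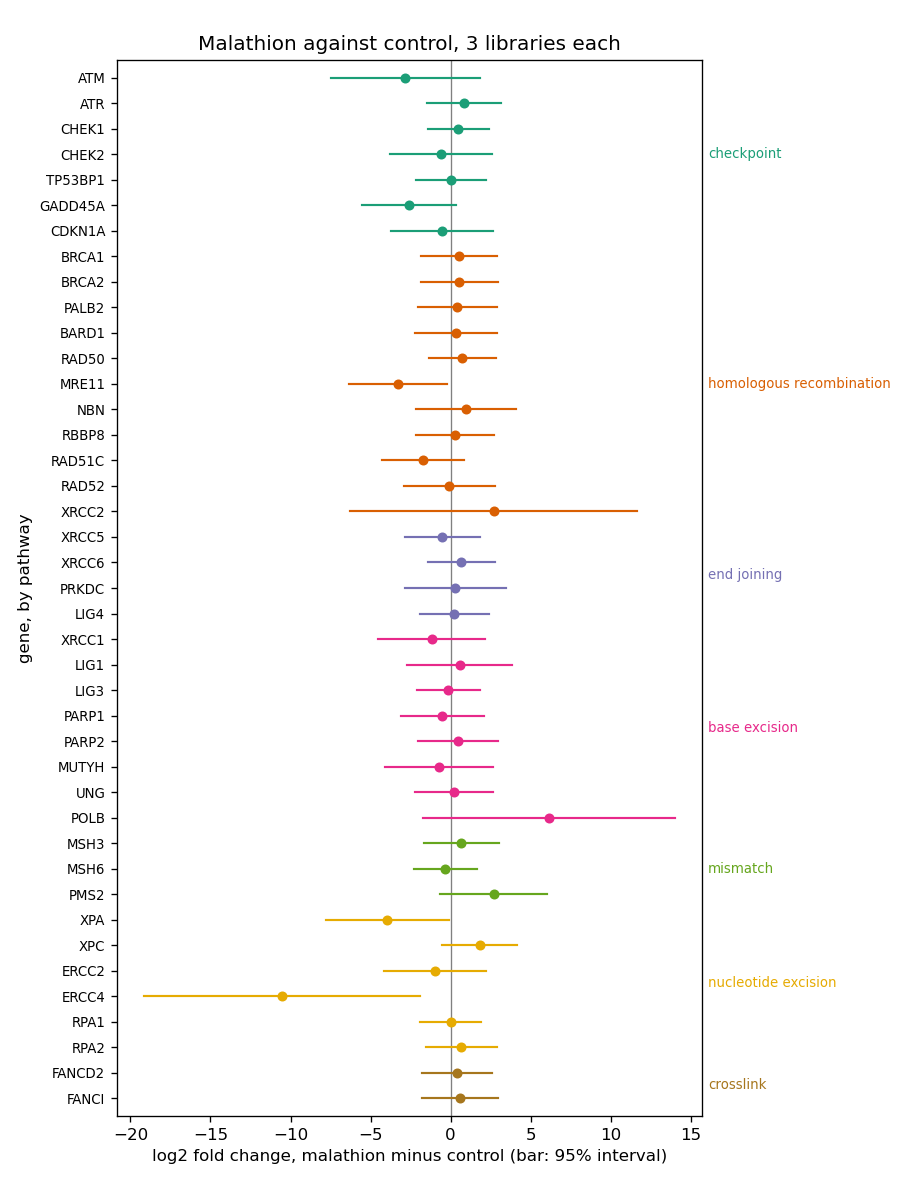
Log2 fold change of each of the 41 tested genes (point) with its 95% interval (bar), malathion minus control, 3 libraries per group, coloured by pathway. The intervals of ERCC4, MRE11 and XPA lie below 0 before adjustment and those of the other 38 genes include 0.

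The 3 same-numbered pairs of libraries gave different pictures. In replicates 1, 40 of the 41 genes had a log2 ratio of malathion to control within 2-fold, with a median of −0.11 and an SD of 0.49 across genes. MUTYH, the glycosylase that removes adenine opposite oxidised guanine, was the exception, at 86 counts in control and 12 in malathion replicate 1. In replicates 2, 21 of 41 were within 2-fold, with a median of 0.23 and an SD of 1.34, and in replicates 3, 18 of 41, with a median of 0.020 and an SD of 2.92. Over all tested genes, 83.1%, 53.2% and 57.8% were within 2-fold in the same pairs. The malathion library was the higher of all 3 pairs for 5 of the 41 genes (12.2%, beside 6.8% of all genes tested), namely CHEK1, NBN, RBBP8, LIG4 and FANCI. It was the lower of all 3 for GADD45A, CDKN1A and PARP1 (7.32%, beside 14.6% of all genes tested). Across the 41 genes, log2 CPM of control replicate 1 correlated with malathion replicates 1 and 2 at r = 0.981 in both cases and with control replicate 2 at r = 0.874. Its correlation with the replicate 3 libraries was 0.480 and 0.577, and that between the replicate 3 libraries 0.721. These correlations describe libraries, and the genes in them are not independent.

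**Figure D3:**
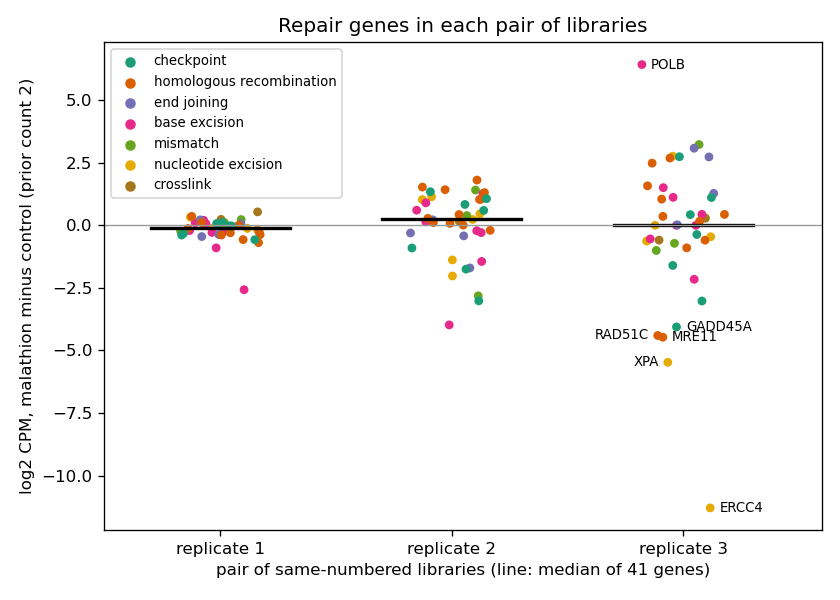
Log2 ratio of malathion to control CPM (prior count 2) for the 41 genes in each same-numbered pair of libraries, with the median as a line and genes beyond 4 on the log2 scale named. The spread is smallest in replicates 1 (SD 0.49) and largest in replicates 3 (SD 2.92), and each named gene is in replicates 3.

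The damage sensors and checkpoint kinases comprised 9 genes, of which 7 were tested, 3 with a log2 fold change above 0 and 4 below. ATM (ENSSSCG00000025606), the kinase recruited to double-strand breaks, stood at 65.6, 31.9 and 445 CPM in the controls and at 64.3, 81.0 and 54.7 CPM after malathion. Control replicate 3 stood at 679% of control replicate 1, whereas malathion replicate 3 lay within the range of the other libraries. Its log2 fold change was −2.82 ± 2.16 (SE, n = 3 per group throughout, edgeR quasi-likelihood, unadjusted p = 0.213), and 3.05 without control replicate 3. With library totals in place of TMM factors it was −1.44. Scaled with the TMM factors of all 6 libraries, malathion replicate 3 stood at 395 CPM. The replicate 1 and 2 libraries stood at 8.94 to 30.3 CPM on that scale. ATR (ENSSSCG00000011679), the kinase that answers single-stranded DNA at stalled forks, stood at 13.1, 8.71 and 0.95 CPM in controls and 10.5, 15.6 and 2.13 CPM after malathion (log2 fold change 0.82 ± 1.08). CHEK1 (ENSSSCG00000015215), the kinase that ATR activates and that restrains CDK1, stood at 84.9, 59.4 and 2.34 CPM and at 89.1, 89.8 and 3.17 CPM (log2 fold change 0.48 ± 0.90). For ATR and CHEK1 the groups overlapped and both replicate 3 libraries were the lowest. TP53BP1 (ENSSSCG00000031949), a chromatin-bound factor that steers breaks to end joining, stood at 22.5, 8.85 and 1.39 CPM and at 17.1, 18.6 and 1.06 CPM (log2 fold change 0.035 ± 1.03).

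The remaining checkpoint genes had fewer counts. CHEK2, the kinase downstream of ATM, had 104, 653 and 0 counts in controls and 105, 81 and 16 after malathion, so control replicate 2 held most of its CPM (68.4%). GADD45A (ENSSSCG00000037066), a stress-induced target of p53, had 142, 231 and 54 counts in controls and 88, 69 and 2 after malathion. Its log2 ratios in the same-numbered pairs were −0.57, −1.75 and −4.06, and its log2 fold change was −2.60 ± 1.36 (edgeR, unadjusted p = 0.0766, adjusted p 0.9998). In CPM, the control and malathion ranges of GADD45A overlapped. Control replicate 3 stood at 1.83 CPM and malathion replicates 1 and 2 at 3.41 and 2.48 CPM. The ranges did not overlap once scaled with the TMM factors. Each control then stood at 2.14 CPM or more and each malathion library at 1.51 CPM or less. GADD45A was the only gene of the 41 tested that was parted on that scale (2.44%, beside 2.83% of all genes tested). Without both replicate 3 libraries the log2 fold change of GADD45A was −0.89. CDKN1A, the p53 target that blocks cyclin-dependent kinases, had 106, 373 and 4 counts and 97, 203 and 0 counts (log2 fold change −0.53 ± 1.49). ATRIP, the partner of ATR, and MDC1, a scaffold at breaks, had at most 108 and 100 counts, in control replicate 2 in both cases, and were not tested with all 6 libraries.

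Homologous recombination comprised 12 genes, 11 of them tested, 8 with a log2 fold change above 0 and 3 below. BRCA2 (ENSSSCG00000029039), a mediator of homologous recombination, stood at 310.1, 141 and 2.34 CPM in the controls and at 252, 378 and 2.62 CPM after malathion (log2 fold change 0.55 ± 1.12). RBBP8 (ENSSSCG00000024419), also called CtIP, which starts the trimming of break ends, stood at 346, 361 and 2.31 CPM and at 353, 363 and 3.14 CPM (log2 fold change 0.26 ± 1.14). RBBP8 lay between 346 and 363 CPM in 4 libraries, and in replicates 3 its level was 0.667% of control replicate 1 and 0.892% of malathion replicate 1. BRCA1 (ENSSSCG00000022101), the ubiquitin ligase that promotes recombination, stood at 25.9, 17.7 and 0.136 CPM and at 17.4, 23.9 and 1.06 CPM (log2 fold change 0.52 ± 1.10). Its obligate partner BARD1 held up better, with 56.8, 58.5 and 19.8 CPM in controls and 43.3, 61.7 and 25.4 CPM after malathion. Control replicate 3 thus kept 34.9% of the control replicate 1 level for BARD1 and 0.524% for BRCA1, and malathion replicate 3 kept 58.6% and 6.12% of the malathion replicate 1 level. PALB2, the link between BRCA1 and BRCA2, had 0.585% and 0.413% in the same measure.

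The break-binding complex of MRE11, RAD50 and NBN was also unequal. MRE11 (ENSSSCG00000014955), its nuclease, stood at 29.1, 36.0 and 62.2 CPM in controls and 37.3, 31.3 and 2.74 CPM after malathion. In CPM, control replicate 3 was the highest and malathion replicate 3 the lowest of the 6, and the remaining 4 lay between 29.1 and 37.3. Scaled with the TMM factors, control replicate 3 stood at 442 CPM and malathion replicate 3 at 19.8 CPM. Each replicate 1 and 2 library was at 16.6 CPM or less on that scale. The log2 fold change of MRE11 was −3.27 ± 1.44 (edgeR, unadjusted p = 0.0385, adjusted p 0.9998), and its sign turned without control replicate 3 (0.53) and without both replicate 3 libraries (0.34). With library totals in place of TMM factors, the log2 fold change of MRE11 was −0.84 (edgeR, unadjusted p = 0.672). RAD50, the zinc-hook subunit, stood at 124, 43.3 and 1.26 CPM and at 102, 125 and 3.88 CPM. NBN, which brings ATM to the complex, had 505, 210 and 0 counts and 506, 757 and 3 counts. A count of 0 in control replicate 3 allows up to 0.102 CPM, by 3 counts of the total and for counting error only. RAD50 and NBN were therefore both far below the replicate 1 and 2 libraries in control replicate 3, in which MRE11 was at its peak. Malathion replicate 3 was also low for both, at 3.88 CPM for RAD50 and 3 counts for NBN.

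XRCC2, XRCC3, RAD51C and RAD52 act at the strand-exchange stage of homologous recombination. XRCC2 (ENSSSCG00000032315) stood at 240.4, 143 and 2305 CPM in controls and 186, 293 and 14835 CPM after malathion. In malathion replicate 3 it had 627682 counts, and both replicate 3 libraries lay above the other 4. The log2 fold change of XRCC2 was 2.70 ± 4.19 (edgeR, unadjusted p = 0.529), and it was −5.81 without malathion replicate 3, 8.99 without control replicate 3 and 0.45 without both. RAD51C (ENSSSCG00000023955) stood at 166, 140.2 and 57.8 CPM and at 167, 170.0 and 2.67 CPM (log2 fold change −1.73 ± 1.2, unadjusted p = 0.173). Outside malathion replicate 3 and control replicate 3 its 4 values differed by little, and its log2 fold change was 0.34 there. XRCC3 had 5 counts in malathion replicate 1 and 0 elsewhere. RAD52, a single-strand annealing factor, stood at 30.1, 31.1 and 0.102 CPM and at 18.6, 33.5 and 0.0236 CPM.

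End joining was represented by 4 matched genes, 3 with a log2 fold change above 0 and 1 below. XRCC5 and XRCC6 encode Ku80 and Ku70, the ring that caps a broken end. XRCC5 (ENSSSCG00000016177) stood at 27.0, 119 and 0.136 CPM in controls and 20.9, 36.6 and 1.28 CPM after malathion (log2 fold change −0.51 ± 1.11). XRCC6 (ENSSSCG00000000059) stood at 87.3, 143 and 1.02 CPM and at 63.9, 106 and 9.10 CPM (log2 fold change 0.67 ± 0.97). Both were highest in control replicate 2, 4.41-fold above control replicate 1 for XRCC5 and 1.63-fold for XRCC6. Without control replicate 2 the log2 fold change of XRCC5 was 0.78, and with the replicate block it was 0.26. LIG4 (ENSSSCG00000009540), the ligase of this pathway, stood at 19.6, 12.2 and 1.93 CPM and at 22.8, 14.3 and 1.96 CPM (log2 fold change 0.23 ± 1.009). PRKDC, the DNA-dependent kinase held by Ku, had 123, 219 and 0 counts and 119, 181 and 4 counts, with a log2 fold change of 0.29 ± 1.48.

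Base excision and single-strand break repair comprised 12 genes, 9 of them matched and 8 tested, 4 with a log2 fold change above 0 and 4 below. UNG (ENSSSCG00000009938), the glycosylase that removes uracil, stood at 151, 196 and 0.407 CPM in controls and 158, 168 and 1.28 CPM after malathion (log2 fold change 0.23 ± 1.14). POLB (ENSSSCG00000007031), the polymerase that fills the gap, stood at 159.8, 105 and 58.6 CPM and at 133, 195 and 5019.7 CPM. Its 212395 counts in malathion replicate 3 put it at 3764% of malathion replicate 1 in CPM, while control replicate 3 was the lowest of the 6. Scaled with the TMM factors, control replicate 3 stood at 416 CPM and each replicate 1 and 2 library at 73.0 CPM or less. The log2 fold change of POLB was 6.15 ± 3.69 (edgeR, unadjusted p = 0.117), and its sign turned without malathion replicate 3 (−1.34). LIG3 (ENSSSCG00000024770), the ligase that works with XRCC1, stood at 55.0, 206 and 2.58 CPM and at 47.6, 75.7 and 5.67 CPM (log2 fold change −0.13 ± 0.92), so control replicate 2 held 52.5% of its CPM. XRCC1 (ENSSSCG00000003055), a scaffold for single-strand break repair, had 16, 42 and 0 counts and 16, 1 and 0 counts (log2 fold change −1.18 ± 1.56).

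PARP1 (ENSSSCG00000023660), the main sensor of strand breaks, stood at 24.8, 28.9 and 0.441 CPM in controls and 13.2, 23.6 and 0.0473 CPM after malathion. Its log2 ratios in the 3 same-numbered pairs were −0.90, −0.29 and −2.16, the groups overlapped, and the test gave −0.52 ± 1.21 (edgeR, unadjusted p = 0.674). Its sister PARP2 stood at 15.04, 15.4 and 0.271 CPM and at 17.3, 23.4 and 0.165 CPM (log2 fold change 0.49 ± 1.17). LIG1 and MUTYH had at most 126 and 86 counts in a library. APEX1, the main endonuclease of the pathway, had 2 counts in each of 3 libraries and 0 in the other 3, and was not tested.

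Mismatch repair was represented by 3 genes, all tested, 2 with a log2 fold change above 0 and 1 below. MSH6 (ENSSSCG00000020931), which recognises single mismatches, stood at 49.8, 34.3 and 5.67 CPM in controls and 42.4, 44.9 and 2.79 CPM after malathion (log2 fold change −0.34 ± 0.92). MSH3 (ENSSSCG00000014126), which recognises loops, stood at 276, 125 and 3.66 CPM and at 323, 331 and 2.20 CPM (log2 fold change 0.68 ± 1.11). For both, the replicate 3 libraries were the lowest in CPM and the groups overlapped. Scaled with the TMM factors, they stayed the lowest for MSH3, but MSH6 was highest in control replicate 3, at 40.3 CPM. PMS2 (ENSSSCG00000007590), the endonuclease subunit, differed in pattern, at 4.97, 35.7 and 3.19 CPM and at 5.38, 5.005 and 30.4 CPM (log2 fold change 2.70 ± 1.57, edgeR, unadjusted p = 0.107). It was high in control replicate 2 and malathion replicate 3 and between 3.19 and 5.38 CPM elsewhere, and the log2 fold change was −2.40 without malathion replicate 3.

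Nucleotide excision repair included ERCC4 and XPA, whose p before adjustment was under 0.05. Of 7 genes, 6 were matched and tested, 3 with a log2 fold change above 0 and 3 below. ERCC4 (ENSSSCG00000007881), or XPF, the nuclease that cuts on the 5′ side of the lesion, stood at 6.19, 13.2 and 2292 CPM in controls and 6.70, 5.04 and 0.851 CPM after malathion. Its 67551 counts in control replicate 3 made up 98.6% of its summed CPM, and the other 5 libraries had 36 to 359 counts. The log2 fold change of ERCC4 was −10.54 ± 4.04 (edgeR, unadjusted p = 0.0203, adjusted p 0.9998), −2.04 with the replicate block, and 0.21 without control replicate 3. XPA (ENSSSCG00000005368), which verifies the lesion, stood at 74.0, 46.8 and 211 CPM and at 68.3, 95.5 and 4.68 CPM (log2 fold change −3.95 ± 1.79, edgeR, unadjusted p = 0.0442, adjusted p 0.9998). Control replicate 3 stood at 285% of control replicate 1. The log2 fold change of XPA was 0.60 without that library and 0.58 without both replicate 3 libraries. With library totals in place of TMM factors it was −0.98 (edgeR, unadjusted p = 0.605). Like MRE11, XPA was highest in control replicate 3 and lowest in malathion replicate 3 in CPM. Scaled with the TMM factors, malathion replicate 3 was not the lowest for XPA. It stood at 33.8 CPM, within the 13.1 to 35.7 CPM of the replicate 1 and 2 libraries.

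In CPM, the other members of this pathway were low in both replicate 3 libraries. RPA2 (ENSSSCG00000003583), a subunit of the protein that coats single-stranded DNA in repair and replication, stood at 145, 75.4 and 2.04 CPM in controls and 182, 166 and 1.47 CPM after malathion (log2 fold change 0.67 ± 1.03). RPA1, its large subunit, stood at 123, 87.8 and 6.51 CPM and at 108, 121 and 4.18 CPM (log2 fold change 0.013 ± 0.90). XPC (ENSSSCG00000011602), the lesion sensor, stood at 15.8, 13.2 and 0.882 CPM and at 14.5, 15.5 and 6.36 CPM, so that malathion replicate 3 kept 43.9% of the malathion replicate 1 level and control replicate 3 kept 5.58% of the control replicate 1 level. Its log2 fold change was 1.81 ± 1.09 (edgeR, unadjusted p = 0.117). Scaled with the TMM factors, malathion replicate 3 was the highest for XPC, at 46.0 CPM, and each other library was at 6.62 CPM or less. ERCC2, a helicase of the transcription factor TFIIH, had at most 77 counts in a library and 0 in both replicate 3 libraries.

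Crosslink repair was represented by FANCI and FANCD2, partners in the clamp that is fixed on DNA at a crosslink, and FANCA, a subunit of the ligase that marks them. FANCI (ENSSSCG00000001837) stood at 230.1, 90.5 and 1.56 CPM in controls and 271, 186 and 1.91 CPM after malathion (log2 fold change 0.62 ± 1.11). FANCD2 (ENSSSCG00000011563) stood at 27.0, 21.1 and 0.746 CPM and at 39.2, 23.6 and 0.473 CPM (log2 fold change 0.39 ± 1.02). In CPM, both were under 3% of the replicate 1 level in replicates 3. FANCA (ENSSSCG00000024687) had 1, 21 and 0 counts and 6, 1 and 0 counts and was not tested.

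Summed over the 46 genes, the transcripts made up 0.329%, 0.261% and 0.550% of gene counts in the controls and 0.316%, 0.358% and 2.00% after malathion. XRCC2, POLB and ERCC4, singled out after their values were seen, accounted for 84.7% of the sum in control replicate 3 and 99.1% in malathion replicate 3, against 10.02% to 13.8% elsewhere. Without these 3 genes, the sum was 2887, 2347 and 841 CPM in controls and 2834, 3084 and 178 CPM after malathion. The replicate 3 libraries thus had the largest sums with these genes and the smallest without them. Of the 41 tested genes, 26 were under 10% of the replicate 1 level of their own group in both replicate 3 libraries. In CPM, the median was 1.81% of that level in control replicate 3 and 3.56% in malathion replicate 3.

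**Figure D4:**
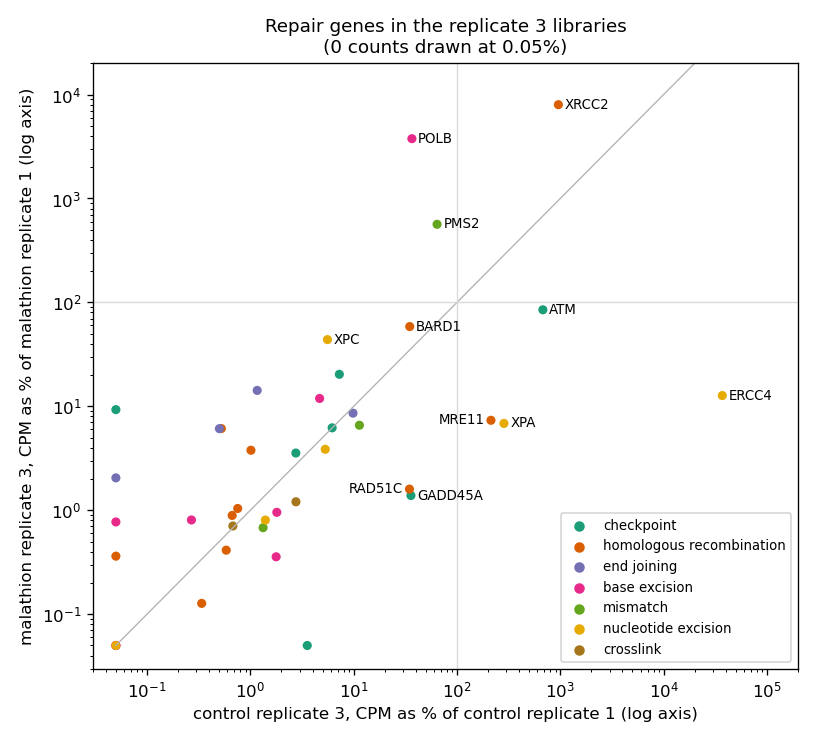
Level of the 41 tested genes in control replicate 3 as a percentage of control replicate 1 (horizontal) against malathion replicate 3 as a percentage of malathion replicate 1 (vertical), both in CPM on log axes, with genes above 30% in either named. XRCC2 is above 100% in both, ERCC4, ATM, MRE11 and XPA in the control only, and POLB and PMS2 in malathion only.

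Detection followed the same division of libraries. At least 1 count was found for 44, 45 and 34 of the 46 genes in the controls and for 44, 45 and 37 after malathion. After thinning each library to 25816040 counts, the numbers were the same except for 36 in malathion replicate 3. Of the 41 tested genes, 17.1% were at 0 in control replicate 3 and 9.76% in malathion replicate 3, beside 28.7% and 26.7% of all tested genes. CHEK2, NBN, PRKDC and LIG1 were at 0 in control replicate 3 but not in malathion replicate 3, CDKN1A the other way round, and XRCC1, MUTYH and ERCC2 in both.

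A further 106 genes of the same pathways were read from a second fixed list, and 97 were matched and 86 tested. None was called (0 in edgeR), with 49 log2 fold changes above 0 and 37 below, a median of 0.22, and an unadjusted p under 0.05 for 1 higher and 2 lower (3.49%, beside 3.59% of all genes tested). By pathway, the splits were 10 above 0 and 6 below for checkpoint genes, 13 and 5 for homologous recombination, 4 and 2 for end joining, 9 and 4 for base excision, 2 and 2 for mismatch repair, 4 and 11 for nucleotide excision, and 7 and 7 for crosslink repair. APLF (ENSSSCG00000008346), an end-joining scaffold, had 892, 935 and 35831 counts in controls and 674, 1348 and 208 after malathion (log2 fold change −7.05 ± 3.00, edgeR, unadjusted p = 0.0334), a pattern like that of ERCC4, with most counts in control replicate 3. TDG (ENSSSCG00000000847), a glycosylase for thymine in mismatches, had 25, 738 and 0 counts and 0, 16 and 0 counts (log2 fold change −4.90 ± 2.14, unadjusted p = 0.0379 in edgeR), with most of them in control replicate 2. ERCC8 (ENSSSCG00000016934), a factor of transcription-coupled repair, had 60, 23 and 0 counts and 82, 74 and 78 counts (log2 fold change 3.61 ± 1.63, unadjusted p = 0.0434 in edgeR). Its CPM overlapped between the groups, with 2.16 in control replicate 1 and 1.84 in malathion replicate 3. Scaled with the TMM factors, malathion replicate 3 stood at 13.3 CPM and each other library at 1.41 CPM or less.

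The malathion libraries lay above the controls without overlap in CPM for 2 of these 86 genes (2.33%, beside 0.749% of all genes tested), both of homologous recombination. DNA2 (ENSSSCG00000010240), a nuclease that trims break ends, stood at 35.6, 24.8 and 24.6 CPM in controls and 51.3, 48.0 and 59.2 CPM after malathion. WRN (ENSSSCG00000015840), a helicase that works with it, stood at 6.15, 5.13 and 3.26 CPM and at 6.78, 8.53 and 6.31 CPM. In normalised CPM, which also takes the TMM factors into account, both overlapped, with DNA2 at 14.9, 6.95 and 175 against 22.8, 17.96 and 428 and WRN at 2.58, 1.44 and 23.2 against 3.01, 3.19 and 45.6. The log2 fold changes, 1.25 ± 1.47 for DNA2 and 0.95 ± 1.32 for WRN, did not pass the test (edgeR, unadjusted p = 0.409 and 0.484, adjusted p 0.9998 for both).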

How the data were processed

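The authors deposited 1 file of read counts per gene for each library. Per the submitters' processing notes, STAR 2.5.3a, HTSeq 0.9.1 and DESeq2 1.20.0 were used, with the genome build, annotation and strand setting not given in the sources used here. Per the labels' protocols, libraries were made by a modified Smart-seq2 method, which amplifies polyadenylated RNA by PCR without molecular identifiers or strand, so reads of overlapping or antisense genes may be mixed, and Wilson intervals and the limits at 0 counts cover counting error only. The intervals of fold changes cover the spread between libraries. The deposited counts list 25880 genes and 5 rows of reads given to no gene (36.7% to 42.6% of a file), which were left out. A name table gave a symbol to 14857 identifiers. No sequence or coordinates were used here.

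CPM were computed on the sum of gene rows. The share of counts held by the repair genes carried a Wilson 95% interval of at most ± 0.00423 percentage points. The comparison of treated with control libraries used the two-sided quasi-likelihood F test of edgeR 4.0.16 in R 4.3.3, with TMM scaling, on the 10678 genes that filterByExpr kept (count at least 10, total at least 15). P-values were adjusted over them by Benjamini and Hochberg, with 0.05 as the limit. The SE of a fold change was obtained from F. Log2 ratios of library pairs used a prior count of 2. Code for the test was also run on simulated counts. A pass was required only at a spread far smaller than that of these libraries, so the run does not show how the test performs on them. Alternatives were other scalings, no filter, DESeq2 1.42.0, limma-voom (limma 3.58.1), libraries left out and a replicate block. Control and malathion libraries share replicate numbers in the labels. Across genes the departures from the group mean went together in same-numbered libraries, with r of 0.466, 0.467 and 0.573. Differently numbered replicates 1 and 2 also correlated, at 0.457 and 0.374, so these values do not show that the numbers 1 and 2 pair the samples. The main test was run without pairing, and the replicate block was an alternative only. No libraries were duplicates (chi-square per degree of freedom at least 56.9).

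The repair genes and lists were chosen with earlier results of these data known. Genes given in each library were, per pathway, the 3 with most counts and the 2 with the smallest p (1 for pathways of 3 genes), any at an unadjusted p under 0.05 or with groups that do not overlap, and ATM, ATR, CHEK1, BRCA1, PARP1 and PCNA. Further members, the comparison of partners within a complex, and the sum without 3 genes were added after the values were seen. Among the other repair genes, those at an unadjusted p under 0.05 or without overlap were named.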

Additional observations from a re-analysis of the deposited data

How the results depend on the processing

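No member of the repair list was called under any of the 14 alternatives, and the smallest adjusted p of a gene named with its fold change was 0.300, for ERCC4 without the filter on low counts, where 60 of 16852 genes passed. Over all genes, 0 to 3 were called when leaving out 1 library, 3 without either malathion replicate 1 or 2. The number of repair genes at an unadjusted p under 0.05, 3 with all libraries, was 4 without the filter, 2 with library totals, 1 with DESeq2 (which gave no p for ERCC4, MRE11, XPA and 4 other genes), and 0 with limma-voom, with the replicate block, without both replicate 3 libraries, and without these and control replicate 2. Leaving out 1 library gave 0 to 3, with 0 without malathion replicate 3, 1 without control replicate 3 or malathion replicate 1, and 2 without malathion replicate 2. The share of all genes tested at that limit was 4.12%, 3.25% and 3.51% without control replicates 1, 2 and 3. It was 3.19%, 4.51% and 2.82% without malathion replicates 1, 2 and 3. All genes at an unadjusted p under 0.05 numbered 383 with all libraries, 110 with library totals or limma-voom, 227 with DESeq2, 989 without the filter, 253 without both replicate 3 libraries, and 120 with the replicate block or without control replicate 2 as well. The median log2 fold change of the repair genes was −0.047 with library totals and −0.043 without both replicate 3 libraries and control replicate 2, and ranged from −0.11 to 0.57 when leaving out 1 library. Over all genes tested the median moved from −0.08 to −0.33 with library totals, −0.28 without the filter and 0.22 without control replicate 2. Repair genes whose groups did not overlap numbered 1 in normalised CPM (2.44%, beside 2.83% of all genes), 9 without both replicate 3 libraries (22.0%, beside 25.6%), and 0 to 6 when leaving out 1 library, from 0 without malathion replicate 2 (beside 3.05%) to 6 without malathion replicate 3 (14.6%, beside 9.85%), with 3 without control replicate 3 (7.32%, beside 15.5%).

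Signs were loose for single genes, and the cause was not tested. With DESeq2's size factors and with DESeq2 itself the log2 fold change of TP53BP1 was −0.024 and −0.023. With library totals the turned values were BRCA1 (−0.047), XRCC6 (−0.36), UNG (−0.084), MSH6 (0.0040) and PMS2 (−0.10), and with limma-voom XRCC5 (0.034) and PMS2 (−0.097). With the replicate number as a block, XRCC5 turned (0.26) and no call changed. Without both replicate 3 libraries they were ATM (0.69), MRE11 (0.34), RAD51C (0.34), XRCC6 (−0.16), MSH6 (0.22), PMS2 (−1.50) and XPA (0.58). Without these and control replicate 2, a comparison of 1 control with 2 malathion libraries, they were ATM (0.093), ATR (−0.070), TP53BP1 (−0.38), BRCA1 (−0.38), BRCA2 (−0.043), MRE11 (0.20), XRCC2 (−0.074), XRCC5 (0.016), XRCC6 (−0.11), LIG4 (−0.096), LIG3 (0.096), POLB (−0.023), XPA (0.087) and FANCI (−0.027).

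When leaving out 1 library, 17 of 27 named genes changed sign at least once, with ranges of ATM −5.15 to 3.05, TP53BP1 −0.38 to 0.32, MRE11 −3.82 to 0.53, RBBP8 −0.22 to 0.85, XRCC2 −5.81 to 8.99, XRCC5 −1.04 to 0.78, LIG4 −0.15 to 0.76, LIG3 −0.41 to 0.54, PARP1 −1.19 to 0.031, UNG −0.31 to 0.73, POLB −1.34 to 7.97, MSH6 −0.72 to 0.29, PMS2 −2.40 to 3.63, XPA −4.52 to 0.60, ERCC4 −11.12 to 0.21, FANCD2 −0.28 to 0.83 and FANCI −0.080 to 1.91. CHEK1, GADD45A, XRCC1, MSH3 and RPA2 kept their sign in each setting run. The settings reuse the same libraries, and the share of all genes tested that kept their sign is not given here. A kept sign is therefore no evidence of a change. Of the 46 repair genes, 29 and 30 had 10 counts or more in control and malathion replicate 3, 28 and 30 after thinning to equal depth, and 41 to 44 in the other libraries before and after, so equal depth changed these numbers by at most 1.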
